A study of Mus musculus with 45 samples.

Results

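Open chromatin regions (OCRs) that lost accessibility within 2 h of SOX2 depletion and also within 2 h of OCT4 depletion were examined over all times and in 3 lines of mouse embryonic stem cells. An OCR was a member when its mean signal in untreated cells (NT) was at least 4 CPM in the SOX2-FKBP line and in the OCT4-FKBP line, and when its mean signal at 2 h was at most 0.5 of NT in both. CPM is the count of a peak per 1000000 counts of its library outside mitochondrial peaks. This rule held for 2414 of 184964 peaks (1.31%), and for 4.69% of the 51462 peaks with at least 4 CPM in both untreated lines. Of the other peaks with this level, 1200 were at or under 0.5 of NT at 2 h of SOX2 depletion and at 0.8 or more at 2 h of OCT4 depletion, and are called SOX2-only peaks or peaks lost only after SOX2. The reverse held for 659 peaks, called OCT4-only, and 22531 peaks were kept, with ratios from 0.8 to 1.2 in both lines. The members were chosen by the NT and 2 h levels of the SOX2-FKBP and OCT4-FKBP lines, so these levels, and every share of NT in those lines, are given as a description with no test.

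Chromatin accessibility was measured by ATAC-seq, in which a transposase inserts adapters into exposed DNA. Every line carried an FKBP degron tag on both alleles of the named factor, so that 500 nM dTAG-13 directs the tagged protein to the proteasome, and every line was a clone grown in serum-free medium with 2i and LIF. SOX2-FKBP and NANOG-FKBP were made in E14 cells (129/Ola) and OCT4-FKBP in V6.5 cells, and NT cells received DMSO. The libraries analysed here were 2 per group in SOX2-FKBP (NT, 0.5, 1, 2, 6 and 24 h) and OCT4-FKBP (NT, 2, 6 and 24 h), and in NANOG-FKBP 2 of NT and 3 each of 2, 6 and 24 h by the labels, although the study describes its NANOG-FKBP libraries as duplicates. Depletion acts on the protein, so the accessibility counts hold no check of it. SOX2-FKBP replicates are described as including an independent clone, without saying which. Where libraries do not come from separate cultures, p-values measure only technical spread.

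SOX2 is an HMG-box factor and OCT4, the product of Pou5f1, is a POU factor, and in embryonic stem cells they bind DNA side by side at a composite site in which a SOX element lies next to an octamer. NANOG is a homeodomain factor that shares many of their enhancers. Accessible sites far from gene starts are typically enhancers, at which a nucleosome is displaced while transcription factors are bound.

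Library totals ranged from 5664738 to 10887645 counts in SOX2-FKBP, from 6378962 to 17575631 in OCT4-FKBP and from 1817191 to 12437876 in NANOG-FKBP. The 3 treated NANOG-FKBP libraries numbered replicate 2 stood apart as the shallowest, and 13.2% to 17.6% of their counts fell in mitochondrial peaks, and NANOG results are given with and without them. The share of counts on chromosome 8, which holds 136 members, was 5.30% to 5.46% in SOX2-FKBP, 7.66% to 7.94% in OCT4-FKBP and 5.73% to 7.39% in NANOG-FKBP, so levels on this chromosome are not compared between lines. At the promoters of the stem cell genes Sox2, Nanog and Zfp42 the median signal over 31 libraries was 37.5, 23.7 and 28.6 CPM, whereas it was 1.64 CPM at Esrrb, and no analysed peak lay within 1 kb of the starts of Pou5f1 or Tdgf1. Of the genes fixed as marks of other cell types, Gata6 (24.7 CPM), Cdx2 (14.6 CPM) and Sox17 (7.55 CPM) also had an open promoter, and Col1a1, Col3a1 and Ptprc had no analysed peak there.

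The DNA under the members was read first, in a window of 300 bases centred on the peak summit (mm10, both strands, 2413 members with sequence). The composite searched was a SOX element (CATTGT), any base, and an octamer (ATGCAAAT), and both parts were also searched alone, so the 3 searches overlap. No member held the exact composite, and 26 held it with 1 mismatch. The 4 windows below were chosen for the fewest mismatches among members outside exons, with the highest NT level where tied, and show the composite in capitals as it reads on the plus strand.

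Dgkg intron, chr16:22637398-22637697, plus strand: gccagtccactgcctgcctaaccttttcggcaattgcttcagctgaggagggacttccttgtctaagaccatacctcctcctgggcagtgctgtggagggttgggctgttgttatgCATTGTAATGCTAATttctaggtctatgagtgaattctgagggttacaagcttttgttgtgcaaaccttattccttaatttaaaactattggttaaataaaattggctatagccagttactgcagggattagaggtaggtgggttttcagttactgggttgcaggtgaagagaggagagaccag
Intergenic, 89801 bp downstream of the Cep170 start, chr1:176724116-176724415, plus strand: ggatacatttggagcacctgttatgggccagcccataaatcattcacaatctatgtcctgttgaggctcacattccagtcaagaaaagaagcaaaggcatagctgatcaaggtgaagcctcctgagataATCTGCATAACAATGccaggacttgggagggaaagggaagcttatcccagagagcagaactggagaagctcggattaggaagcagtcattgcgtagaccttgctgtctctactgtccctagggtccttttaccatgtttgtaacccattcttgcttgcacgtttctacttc
Grap2 intron, chr15:80619146-80619445, plus strand: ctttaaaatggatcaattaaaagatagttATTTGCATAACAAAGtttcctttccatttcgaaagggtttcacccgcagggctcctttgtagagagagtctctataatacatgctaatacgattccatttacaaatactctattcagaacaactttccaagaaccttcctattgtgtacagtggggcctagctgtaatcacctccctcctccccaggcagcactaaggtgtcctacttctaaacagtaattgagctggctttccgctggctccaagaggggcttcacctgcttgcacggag
Atp5o intron, chr16:91837235-91837534, plus strand: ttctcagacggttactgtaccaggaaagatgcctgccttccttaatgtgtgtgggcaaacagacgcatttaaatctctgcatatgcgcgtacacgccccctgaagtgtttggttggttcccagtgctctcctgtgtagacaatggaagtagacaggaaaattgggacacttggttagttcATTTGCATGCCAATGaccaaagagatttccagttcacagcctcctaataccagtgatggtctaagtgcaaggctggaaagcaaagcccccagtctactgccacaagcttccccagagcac

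Read in the direction of the composite, the site in the Dgkg intron was CATTGTAATGCTAAT, with the substitution A12T counted from 1 at the 5′ end of the composite. The Cep170 site (CATTGTTATGCAGAT, A13G), the Grap2 site (CTTTGTTATGCAAAT, A2T) and the Atp5o site (CATTGGCATGCAAAT, T6G) lay on the minus strand. Dgkg encodes a diacylglycerol kinase, Cep170 a centrosomal protein, Grap2 an adaptor of T cell signalling and Atp5o a subunit of ATP synthase, and the nearest gene is given only as a place name, not as a target. At the Dgkg site the signal was 20.5 and 22.7 CPM in the NT libraries of SOX2-FKBP, 7.0 and 5.90 CPM at 2 h and 2.28 and 2.88 CPM at 24 h. In OCT4-FKBP it was 16.8 CPM in both NT libraries, 3.42 and 3.98 CPM at 2 h and 0.678 and 0.821 CPM at 24 h. The Cep170 site kept more of its signal, with 8.69 and 8.0 CPM left of 19.5 and 15.4 CPM after 24 h of SOX2 depletion, and 6.78 and 9.20 CPM left of 12.5 and 19.0 CPM after 24 h of OCT4 depletion. All 4 windows held the composite with 1 mismatch, and the accessibility left at 24 h differed between them.

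For contrast, the window below belongs to the member with the highest NT level that held no composite with up to 4 mismatches, no SOX element and no octamer.

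Intergenic, 15197 bp downstream of the Klf2 start, chr8:72334080-72334379, plus strand: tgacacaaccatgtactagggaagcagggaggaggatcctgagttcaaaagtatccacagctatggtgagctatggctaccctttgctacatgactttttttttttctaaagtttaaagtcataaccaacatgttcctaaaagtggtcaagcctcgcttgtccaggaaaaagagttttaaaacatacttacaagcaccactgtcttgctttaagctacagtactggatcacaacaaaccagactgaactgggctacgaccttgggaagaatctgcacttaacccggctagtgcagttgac

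The composite with at most 3 mismatches was found in 846 members (35.1%), against 5.50% of peaks lost only after SOX2, 17.6% of peaks lost only after OCT4, 1.72% of kept peaks and 4.37% of all 184798 peaks with sequence. The exact SOX element, inside a composite or not, was present in 30.7% of members and 34.7% of SOX2-only peaks. It was present in 12.3% of OCT4-only peaks, 8.74% of kept peaks and 14.5% of all. The octamer was present in 9.20% of members, 0.583% of SOX2-only peaks, 19.6% of OCT4-only peaks, 1.40% of kept peaks and 2.63% of all. Of these sets the members had the highest share with a composite. For the SOX element and for the octamer, counted inside a composite or not, their share lay between those of SOX2-only and OCT4-only peaks. With none of the 3 were 1054 members (43.7%), and with none even at 4 composite mismatches were 434. The share with a composite moved with the tolerance, being 8.58% at 2 mismatches and 75.7% at 4, where all peaks had 0.701% and 20.4%.

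Within members the composite lay near the summit, at a median distance of 39.0 bp against 68.0 bp in kept peaks, and 35.3% of composites were centred within 25 bp of it against 22.0%. The median distance was similar in OCT4-only peaks (38.5 bp) and was 51.0 bp in SOX2-only peaks, with 26.7% and 27.3% of composites within 25 bp. Over the 846 composites the bases that matched most often were T9 (95.9%), T4 (94.8%), A14 (94.1%) and T3 (93.6%), positions counted from the 5′ end, and the least kept were G5 (61.7%), C1 (63.7%) and T15 (66.0%). The free base at position 7 was T in 36.0% of them. The CTCF core AGGGGGC was found in 3.81% of members against 15.3% of kept peaks, and the TFAP2 site GCCNNNGGC in 6.47% against 20.8%, where all peaks had 7.92% and 11.9%. Low shares were not particular to members. In SOX2-only and OCT4-only peaks the CTCF core was found in 4.25% and 4.25%, and the TFAP2 site in 8.92% and 9.86%. The ESRRB site AAGGTCA was found in 8.41% of members, 23.5% of SOX2-only peaks, 11.8% of OCT4-only peaks, 5.09% of kept peaks and 10.5% of all peaks. The KLF site CCACACCC was found in 4.93% of members, 5.20% of kept peaks and 6.04% of all, and the TEAD site ACATTCC in 5.88%, 3.67% and 5.85%. SOX2-only and OCT4-only peaks had the KLF site in 9.08% and 8.35%, and the TEAD site in 6.83% and 10.6%. These matches are letters in a window and not measured binding, and a window without a match lacks only these letters.

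**Figure D1:**
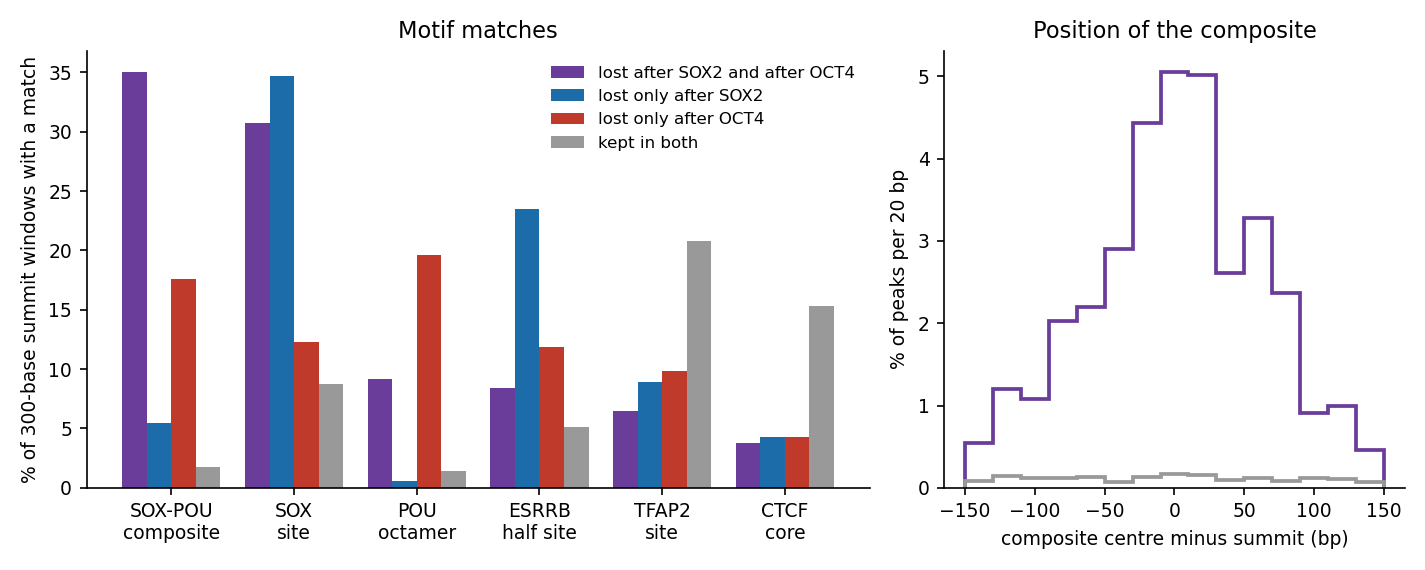
Left, the percentage of 300-base summit windows with a match to each motif in members (lost after SOX2 and after OCT4), peaks lost only after SOX2, peaks lost only after OCT4 and kept peaks. Right, the position of the composite (at most 3 mismatches) relative to the summit in bp, as the percentage of peaks per 20 bp bin. The composite is in 35.1% of members and 1.72% of kept peaks, and in members it gathers around the summit.

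Most members were distal. By summit, 52.6% lay between genes and 44.4% in introns, and 70 members (2.90%) lay within 500 bp of a gene start, against 48.6% of kept peaks and 13.2% of all peaks. Their median distance to a protein-coding start was 53274 bp, and 846 members (35.0%) were more than 100 kb from any. The 300-base windows were AT-rich, with a median GC content of 45.3% and 2 CpG, whereas kept peaks had 57.7% and 12 CpG and all peaks 51.0% and 4. SOX2-only and OCT4-only peaks were also distal (3.33% and 5.01% within 500 bp of a start). The median width of members was 1034 bp, against 991 bp in SOX2-only, 1083 bp in OCT4-only and 1247 bp in kept peaks, and 636 bp over all peaks. Members were mostly scattered, as 223 members had another within 20 kb, and the longest runs, 7 in number, held 3.

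The loss was already large at the earliest times. In these bulk samples a site open in fewer cells and a site less open in each cell cannot be told apart. After 0.5 h of SOX2 depletion 48.9% of the NT level remained at the median member (42.1% in replicate 1 and 54.7% in replicate 2). It was 36.0% after 1 h (30.5% and 40.2%) and 30.7% after 2 h (27.8% and 32.9%). The later medians were 25.2% for 6 h (22.9% and 27%) and 17.7% for 24 h (16.1% and 18.7%). Replicate 2 was the higher of the pair at all 5 times. At 0.5 h 1281 members (53.1%) were at or under 0.5 of NT, and at 1 h 2030 (84.1%). In OCT4-FKBP the earliest time was 2 h. There the median member was left with 31.3% (SD of the library medians 2.91, n = 2), which fell to 22.2% (SD 1.92) by 6 h and to 16.3% (SD 2.51) by 24 h. The kept peaks had a median of 113% of NT at 24 h in SOX2-FKBP and 116% in OCT4-FKBP, in CPM that are relative to the total of each library.

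By 24 h 71.4% of members in SOX2-FKBP and 77.4% in OCT4-FKBP were at or under 0.25 of NT, and 1455 of 2414 were so in both. The 24 h level was the lowest of the series for 1975 members in SOX2-FKBP and 1780 in OCT4-FKBP, and 1066 members fell at each step of the SOX2 series. Only 97 members were above 0.5 of NT at 24 h in either line, and 1 member, in OCT4-FKBP, was above NT. The members took 2.77% to 3.00% of all counts in the NT libraries of the SOX2-FKBP and OCT4-FKBP lines, and 0.461% to 0.592% at 24 h. Members with a composite were left with 16.6% at 24 h of SOX2 depletion and 14.5% at 24 h of OCT4 depletion, and the 434 with none of the 3 searched motifs, even at 4 composite mismatches, with 20.6% and 18.3%. Counts per member were small at late times, with a median of 10 to 11 counts in the 24 h libraries of OCT4-FKBP against 62 to 172 in NT libraries, so single members are imprecise there.

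In NANOG-FKBP the same peaks were open in untreated cells, with a median of 10.9 CPM and 2316 of 2414 at 4 CPM or more. The median member kept 86.8% of NT after 2 h of NANOG depletion (SD of the library medians 8.01, n = 3), 93.1% after 6 h (SD 9.32) and 95% after 24 h (SD 9.04). The highest library at each time was replicate 2, and without these 3 libraries the median was 81.6% at 2 h and 88.2% at 24 h. At or under 0.5 of NT were 255, 244 and 307 members (10.6%, 10.1% and 12.7%) at 2, 6 and 24 h, and 159 of them at all 3 times. Of the peaks with at least 4 CPM in both untreated lines 2.50%, 2.70% and 4.18% were so at the 3 times. The NANOG-FKBP libraries chose no member, so their changes were tested.

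**Figure D2:**
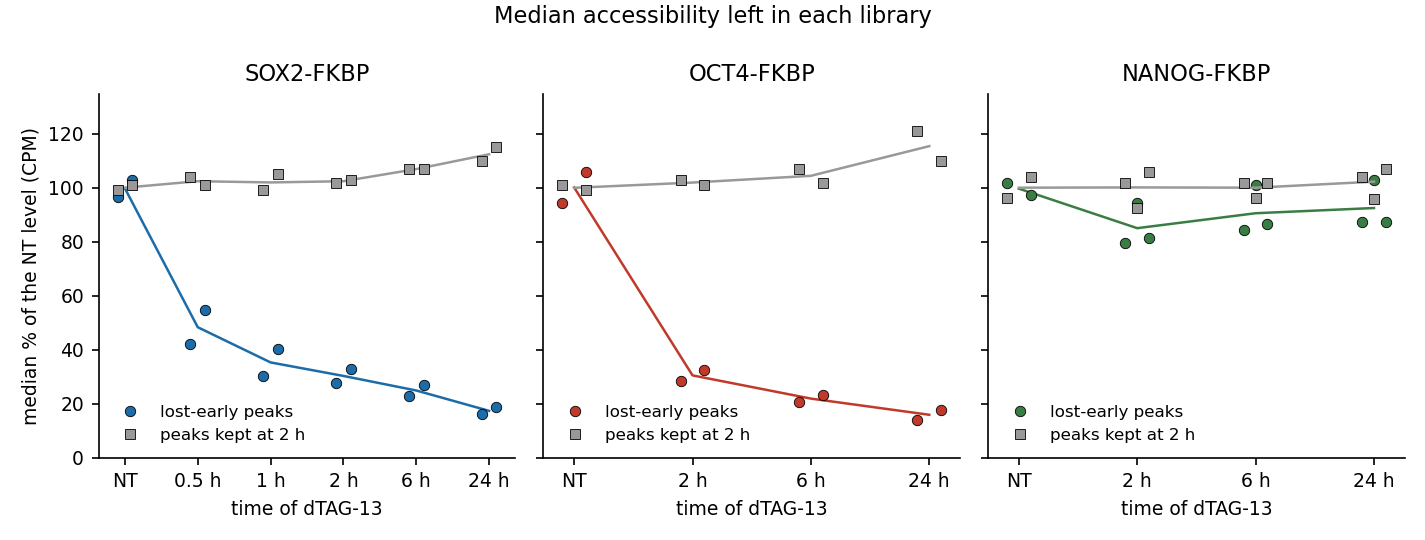
Median percentage of the NT level (CPM) left in each library against the time of dTAG-13, for the 2414 members (circles) and the 22531 kept peaks (squares), with lines through the mean of the libraries; times are evenly spaced. Members fall to 48.9% at 0.5 h and 17.7% at 24 h of SOX2 depletion and to 16.3% at 24 h of OCT4 depletion, and stay between 79.5% and 103% in the NANOG-FKBP libraries.

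The first question was whether peaks that need SOX2 and OCT4 also change when NANOG is removed. Counts were tested with edgeR's quasi-likelihood test over all 166430 peaks past the low-count filter, all 2414 members among them, with Benjamini-Hochberg adjusted p under 0.05. At 2 h of NANOG depletion 187 members (7.75%) fell and 0 rose, where 0.934% of all peaks tested fell and 0.0162% rose. Of the members 674 (27.9%) were lower and 31 (1.28%) higher at an unadjusted p under 0.05, against 5.18% and 2.14% of all peaks, and DESeq2 also called 0 higher. At 6 h 190 members (7.87%) fell and 1 rose, where 1.08% and 0.0367% of all peaks did. At 24 h 308 members (12.8%) fell and 21 (0.870%) rose, where 2.24% and 0.288% of all peaks did. Peaks of like level, at least 4 CPM in both untreated lines, fell in 1.66%, 2.04% and 3.93% at the 3 times. The SOX2-only peaks fell in 10.1%, 11.8% and 18.5%, the OCT4-only peaks in 5.77%, 7.44% and 14.9%, and the kept peaks in 0.204%, 0.297% and 0.652%. The median log2 fold change of members was -0.26, -0.13 and -0.10, and that of all peaks 0.01, 0.02 and 0.03. Without the 3 treated replicate 2 libraries the medians of members were -0.33, -0.26 and -0.21, and without 24 h replicate 1 alone that of 24 h was -0.03.

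Most members, 2043 of 2414, passed at no time, 350 fell at 1 or more times, and 137 fell at all 3. The times are not independent, as they share their NT libraries and same-numbered treated libraries deviated together. The matching shares of all peaks were counted only for each time alone, as given above. Without the 3 treated replicate 2 libraries 198, 203 and 347 members fell. Here and below, counts from fits without some libraries are given without the share of all peaks. They show only how the calls depend on the libraries. The members changed at 2 h numbered 77 without NT replicate 1, 119 without NT replicate 2 and 55 without replicate 1 of 2 h. At 6 h they numbered 78, 117 and 72 without the same NT libraries and replicate 1 of 6 h, and at 24 h 150 without NT replicate 1, 183 without replicate 1 and 182 without replicate 3 of 24 h. Of the 308 members lower at 24 h, 38.3% held a composite against 34.6% of the rest, and 21 were on chromosome 8.

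**Figure D3:**
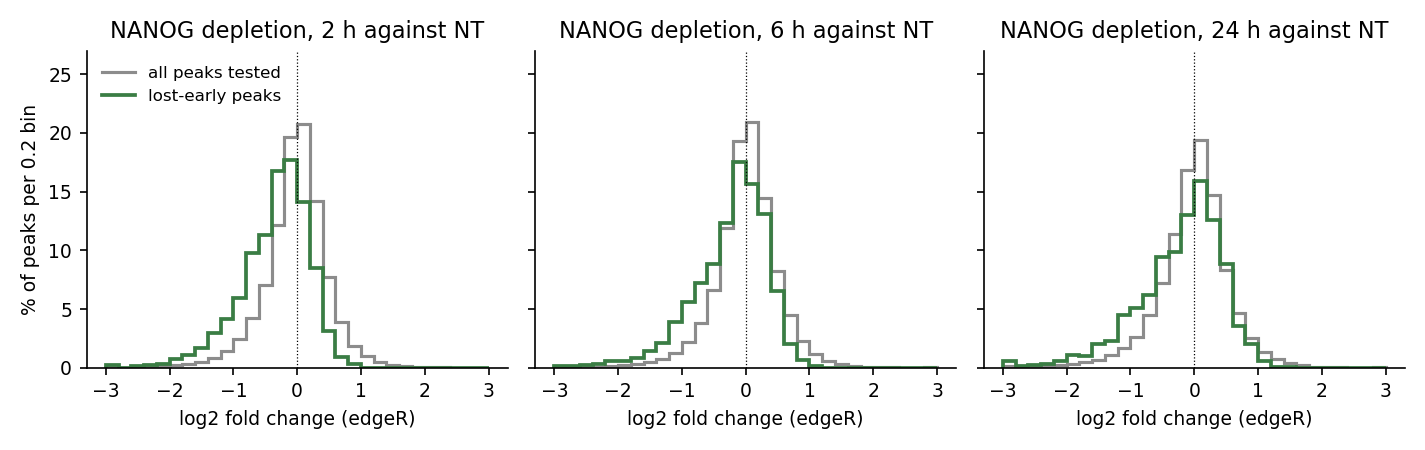
Log2 fold change against NT (edgeR) at 2, 6 and 24 h of NANOG depletion, as the percentage of peaks per 0.2 bin, for members (green) and all 166430 peaks tested (grey); values beyond -3 or 3 are put in the end bins. The members have a longer left tail, and their median is -0.26 at 2 h and -0.10 at 24 h.

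The member that fell most after NANOG depletion lay in an intron of Rtf1, a subunit of the PAF complex of transcribing RNA polymerase (chr2:119730661-119731424). It had 23.4 and 13.4 CPM in NT libraries of NANOG-FKBP, and 0.889, 0.00 and 0.821 CPM at 2 h. All 9 treated libraries were at or under 1.40 CPM, so the groups did not overlap. The log2 fold change was -4.56 (SE 0.37, adjusted p = 3.05e-10, edgeR) at 2 h, -4.12 at 6 h and -4.52 at 24 h. After SOX2 depletion the same site went from 12.7 and 10.8 CPM in NT to 8.96 and 8.04 CPM at 0.5 h, 5.14 and 5.00 CPM at 2 h and 1.09 and 1.07 CPM at 24 h. It held none of the 3 motifs.

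An intronic member of Eml4, which encodes a microtubule-associated protein (chr17:83361039-83361791), had 9.79 and 9.30 CPM in NT and 1.16, 0.00 and 1.23 CPM at 2 h of NANOG depletion (log2 fold change -3.18, SE 0.37, adjusted p = 2.49e-06). A member 24021 bp downstream of the olfactory receptor gene Olfr466 (chr13:65174097-65174460) went from 13.9 and 10.3 CPM to 0.826, 1.06 and 1.48 CPM at 6 h (log2 fold change -3.58, SE 0.35, adjusted p = 2.78e-08). A member in an intron of Adgrl3, an adhesion G protein-coupled receptor gene (chr5:81676601-81677280), went from 8.18 and 10.5 CPM to 0.350, 0.871 and 1.06 CPM at 24 h (log2 fold change -3.77, SE 0.53, adjusted p = 1.04e-05). In all 3 the NT and treated libraries did not overlap. Some members rose instead. A peak 233716 bp upstream of Zbtb20, a zinc finger repressor gene (chr16:42641241-42642791), had 6.28 and 6.20 CPM in NT and 15.9, 19.2 and 13.1 CPM at 24 h of NANOG depletion (log2 fold change 1.34, SE 0.27, adjusted p = 0.00153). It was the 1 member that rose at 6 h (log2 fold change 1.11, SE 0.27, adjusted p = 0.0234), a call lost without either NT library (adjusted p = 0.227 and 0.173), 6 h replicate 2 (0.0936) or 6 h replicate 3 (0.117). The same peak stood at 1.41 and 1.17 CPM after 24 h of SOX2 depletion, from 4.77 and 5.40 CPM in NT. The largest rise at 24 h, on chromosome 14 (chr14:114038639-114039851, 724578 bp from the nearest coding start), was from 4.09 and 4.65 CPM to 14.4, 10.0 and 10.4 CPM (log2 fold change 1.46, SE 0.26, adjusted p = 0.000295).

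The second question was how the members changed between times whose libraries did not enter the choice of members. The step from 0.5 h to 1 h lies within the interval from NT to 2 h over which members were chosen to fall, and that from 1 h to 6 h spans 2 h, so for these steps the values beside those of all peaks are a description. From 0.5 h to 1 h of SOX2 depletion, in a fit of the 12 SOX2-FKBP libraries over 160432 peaks that kept 2394 members, edgeR called 0 members in either direction, against 0.00% of all peaks in each. At an unadjusted p under 0.05 700 members (29.2%) were lower and 1 (0.0418%) was higher, against 2.40% and 1.58% of all peaks. DESeq2 called 0, and the replicate block, with same-numbered libraries paired, called 36 in both directions together. Counts called by the block are given without the share of all peaks, and show only how the calls depend on the pairing. The median log2 fold change of members was -0.42 and that of all peaks -0.00. From 1 h to 6 h 115 members (4.80%) fell and 0 rose, where 0.695% of all peaks fell and 0.0567% rose, at a median log2 fold change of -0.45 against 0.01. At an unadjusted p under 0.05 734 members (30.7%) were lower and 8 (0.334%) higher, against 6.40% and 4.16% of all peaks, and DESeq2 called 65 lower and 0 higher. The block called 331 in both directions together. Without 1 h replicate 2 the count was 65, without 6 h replicate 1 it was 28 and without 6 h replicate 2 it was 13. Of peaks of like level, 1.8% fell. The SOX2-only peaks fell in 15.5%, more than the members, at a median log2 fold change of -0.60. OCT4-only peaks fell in 1.37%, at a median of -0.11.

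From 6 h to 24 h of SOX2 depletion 6 members (0.249%) fell and 0 rose, where 0.0829% of all peaks fell and 0.0210% rose. At an unadjusted p under 0.05 498 members (20.6%) were lower and 6 (0.249%) higher, against 5.48% and 2.90% of all peaks, and DESeq2 called 11 lower and 0 higher. The median log2 fold change was nevertheless -0.45 against -0.02, and 85.2% of members were below 0 against 51.8% of all peaks. SOX2-only peaks had a median of -0.41 with 81.9% below 0, and OCT4-only peaks -0.34 with 82.9%. Called lower were 0.417% and 1.82% of these 2 sets, so the decline was not particular to members. The block called 124, of which 1 rose, and 0 members were called when any of the 4 libraries was left out. From 6 h to 24 h of OCT4 depletion 138 members (5.72%) fell and 15 (0.621%) rose, where 4.48% of all peaks fell and 2.92% rose. Peaks of like level fell in 10.6%, so the share of members was below theirs. The block called 322 in both directions together, without a share of all peaks to set beside it. The count was 64 without 6 h replicate 2, 31 without 24 h replicate 1 and 86 without 24 h replicate 2. The SOX2-only peaks, which had kept 103% of NT at 6 h of OCT4 depletion, fell in 47.2% in this interval, with a median log2 fold change of -0.92 against -0.34 in members, which entered it at 22.2% of NT.

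The change from 6 h to 24 h differed between SOX2 and OCT4 depletion at 1 member, with 0 members lower and 1 higher in SOX2 minus OCT4, where 0.00180% and 0.0222% of all peaks were. At an unadjusted p under 0.05 133 members (5.51%) were lower and 66 (2.73%) higher, against 4.13% and 4.72% of all peaks, so these shares were near or below those of all peaks. DESeq2 called 2 lower and 1 higher, and the block called 19 lower and 7 higher. The lines also differ in strain, so factor and line cannot be told apart. This member lay 18122 bp upstream of the vomeronasal receptor gene Vmn1r1 (chr1:182181466-182182911). In OCT4-FKBP it held 8.37 and 8.40 CPM at 6 h and 0.949 and 1.31 CPM at 24 h, and in SOX2-FKBP 4.80 and 7.11 CPM at 6 h and 4.02 and 5.66 CPM at 24 h. The times overlapped in SOX2-FKBP and did not in OCT4-FKBP. The log2 fold change was -2.84 after OCT4 and -0.27 after SOX2 depletion, a difference of 2.57 (SE 0.45, adjusted p = 0.0184, edgeR). It was not called without 24 h replicate 1 of OCT4-FKBP (adjusted p = 0.135), or without 6 h replicate 1 (adjusted p = 0.0857) or 24 h replicate 2 (adjusted p = 0.117) of SOX2-FKBP.

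**Figure D4:**
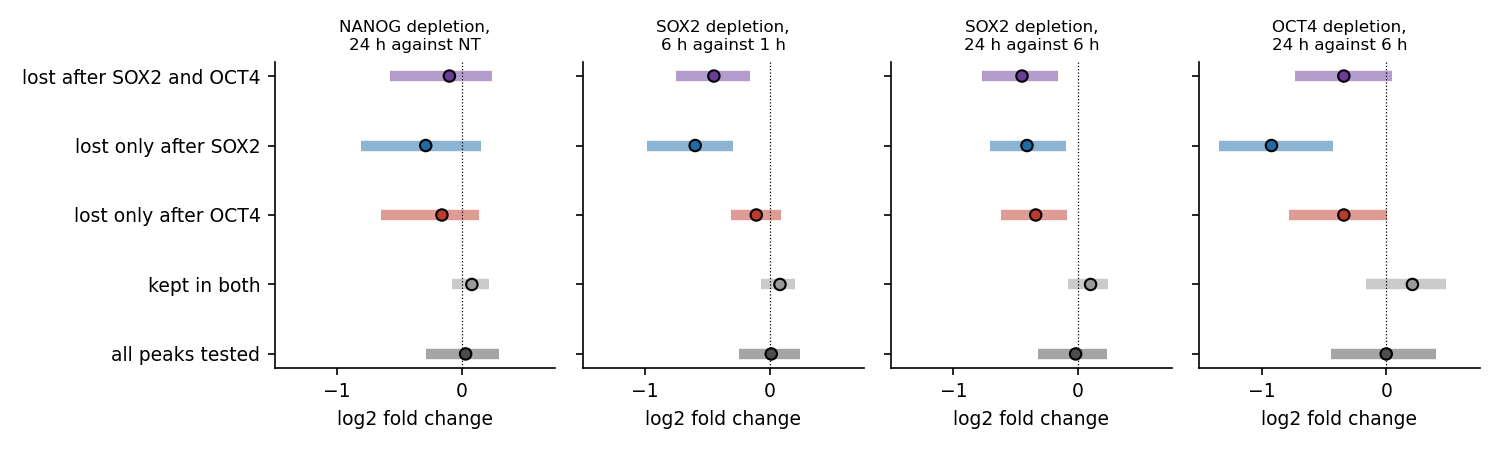
Median (point) and interquartile range (bar) of the log2 fold change (edgeR) in 4 contrasts between libraries that did not enter the choice of members, for members, peaks lost only after SOX2, peaks lost only after OCT4, kept peaks and all peaks tested. Members lie at -0.45 in both later SOX2 intervals and at -0.34 from 6 h to 24 h of OCT4 depletion, where the peaks lost only after SOX2 lie at -0.92.

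Between 6 h and 24 h the largest falls after SOX2 depletion were at a member 71918 bp upstream of Eomes (chr9:118404791-118406896), described with its gene list, and at an intronic member of Tmem229b, a transmembrane protein gene (chr12:78996221-78997163). The latter had 4.90 and 4.03 CPM at 6 h and 1.2 and 1.49 CPM at 24 h (log2 fold change -1.69, SE 0.34, adjusted p = 0.0327). After OCT4 depletion the largest fall was at an intronic member of Msrb2, a methionine sulfoxide reductase gene (chr2:19380313-19381441), from 1.65 and 1.90 CPM to 0.271 and 0.164 CPM (log2 fold change -2.86, SE 0.71, adjusted p = 0.00962). Neither pair of times overlapped. The Tmem229b call was lost without any of its 4 libraries (adjusted p from 0.191 to 0.555), and the Msrb2 call without either 24 h library (adjusted p = 0.0925 and 0.0799). The largest rise after OCT4 depletion was far from any coding start, 406200 bp upstream of Gm28363 (chr1:117290456-117291323). It went from 5.14 and 5.82 CPM in NT to 2.13 and 1.62 CPM at 2 h and 1.89 and 2.65 CPM at 6 h, and stood at 6.50 and 7.23 CPM at 24 h (24 h against 6 h, log2 fold change 1.65, SE 0.27, adjusted p = 0.000137). This is the member above NT at 24 h. In SOX2-FKBP it stayed down at 1.2 and 1.17 CPM at 24 h, and in NANOG-FKBP it had 4.38 and 5.00 CPM in NT and 8.94, 6.97 and 8.59 CPM at 24 h (adjusted p = 0.0654). A member 137008 bp upstream of Hnf4g, a nuclear receptor gene (chr3:3370164-3371545), rose from 0.366 and 0.569 CPM to 1.22 and 1.64 CPM (log2 fold change 1.64, SE 0.49, adjusted p = 0.0323) and was still below its NT level of 8.46 and 6.40 CPM. That call was lost without any of its 4 libraries (adjusted p from 0.0934 to 0.152).

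From 1 h to 6 h of SOX2 depletion the largest falls were 24429 bp upstream of Ncr1, a natural killer cell receptor gene (chr7:4312813-4313964), and 59591 bp upstream of Nexmif, a gene of neurite outgrowth (chrX:104260291-104261642). The Ncr1 member had 2.28 and 3.57 CPM at 1 h and 0.313 and 0.468 CPM at 6 h (log2 fold change -2.79, SE 0.51, adjusted p = 0.00283), and lost the call without 6 h replicate 1 (adjusted p = 0.0627) or replicate 2 (adjusted p = 0.0692). The Nexmif member had 5.21 and 10.2 CPM at 0.5 h and 5.36 and 6.96 CPM at 1 h, against 7.88 and 10.3 CPM in NT. By the rule it was at or under 0.5 of NT at 2 h. At 6 h it had 1.04 and 1.40 CPM (6 h against 1 h, log2 fold change -2.28, SE 0.34, adjusted p = 0.000378). It also fell at 24 h of NANOG depletion, from 9.94 and 12.9 CPM to 3.86, 3.92 and 2.64 CPM (log2 fold change -1.74, SE 0.31, adjusted p = 0.000405).

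The members with the highest NT level show how the course differed from peak to peak. The strongest lay 2796 bp upstream of Ssr2, a subunit of the translocon-associated complex (chr3:88571612-88573549), and held a composite with 3 mismatches and 2 SOX elements. It had 67.2 and 73.5 CPM in NT of SOX2-FKBP, 37.9 and 45.7 CPM at 0.5 h and 18.8 and 18.9 CPM at 24 h. In OCT4-FKBP it had 105 and 82.0 CPM in NT, 26.4 and 25.8 CPM at 2 h, 19.5 and 22.9 CPM at 6 h and 5.01 and 9.69 CPM at 24 h (24 h against 6 h, log2 fold change -1.5, SE 0.32, adjusted p = 0.00264, and 0.119 without 24 h replicate 1). After SOX2 depletion the 6 h libraries (24.2 and 22.1 CPM) were both above the 24 h libraries, but the fold change of -0.27 did not pass (adjusted p = 0.861), and nor did the difference between the depletions (1.23, SE 0.44, adjusted p = 0.359).

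A member 14774 bp upstream of Eps8, an actin regulator (chr6:137669115-137670289), lost most. It went from 42.1 and 45.5 CPM to 13.5 and 17 CPM at 0.5 h and 1.96 and 1.60 CPM at 24 h of SOX2 depletion, and from 53.4 and 67.4 CPM to 2.30 and 2.79 CPM at 24 h of OCT4 depletion. It still fell from 1 h to 6 h of SOX2 depletion (log2 fold change -1.13, SE 0.23, adjusted p = 0.00714) and from 6 h to 24 h of OCT4 depletion (-1.94, SE 0.35, adjusted p = 0.000417). In NANOG-FKBP its 24 h libraries (38.1, 54.0 and 40.1 CPM) overlapped those of NT (42.4 and 39.6 CPM). Without 6 h replicate 1 or 2 of SOX2-FKBP its fall from 1 h to 6 h had an adjusted p of 0.101 and 0.112. The other strong members lay in an untranslated region of 1700019D03Rik (chr1:52952264-52953940), near Plbd1 (chr6:136668434-136669834), a phospholipase gene, near Hmga2 (chr10:120521853-120523783), which encodes an architectural chromatin protein, and in an intron of Jam2 (chr16:84778555-84780303), a junctional adhesion gene. None of these strong members, that near Klf2 included, passed at any NANOG time.

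The listed genes of pluripotency and of other lineages were then looked up, with each member assigned to the nearest coding start within 100 kb. Of 22 pluripotency transcription factor genes, 6 had a member, 7 members in all, which is 2.99% of the 234 peaks with at least 4 CPM at these genes, against 4.69% over all such peaks. Of 17 signalling genes of embryonic stem cells 4 had a member (5 members, 3.05% of 164). Of 7 annotated formative and primed epiblast genes 1 had a member (3.45% of 29), and of 15 regulators of other lineages 4 did (4 members, 5.41% of 74). The shares were thus near or below that of all peaks of this level, and the 12, 6 and 17 such peaks nearest Sox2, Pou5f1 and Nanog included no member.

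Klf2, a naive pluripotency factor, had 2 members, and the stronger is the peak shown above whose window held none of the 3 searched motifs (chr8:72333366-72335054). The study mutated a SOX2 motif in an accessible region about this far downstream of Klf2, and Klf2 expression fell. No match in the window is therefore not a lack of SOX2 motifs in the region. This member had 47.5 and 58.4 CPM in NT, 25.4 and 27.8 CPM at 0.5 h, 14.2 and 18.5 CPM at 2 h and 16.5 and 13.8 CPM at 24 h of SOX2 depletion, and the 2 h and 24 h libraries overlapped. In OCT4-FKBP it had 95.4 and 66.8 CPM in NT, 33.5 and 31.6 CPM at 6 h and 11.7 and 17.6 CPM at 24 h (24 h against 6 h, log2 fold change -1.12, SE 0.30, adjusted p = 0.0172), a call lost without 24 h replicate 1 (adjusted p = 0.217) or 6 h replicate 1 (adjusted p = 0.0756). In NANOG-FKBP replicate 2 was the high library at each time (127, 97.5 and 104 CPM), and the other 8 libraries lay between 57.7 and 74.4 CPM. An intronic member of Tfcp2l1, which encodes a factor of the naive state (chr1:118642293-118643236), had 8.55 and 13.6 CPM at 6 h and 3.66 and 7.72 CPM at 24 h of OCT4 depletion (log2 fold change -0.93, SE 0.29, adjusted p = 0.0445), and 8.55 and 6.83 CPM against 7.71 and 6.30 CPM after SOX2 (-0.10, adjusted p = 0.957). Its call was lost without 24 h replicate 1 (adjusted p = 0.487) or 6 h replicate 2 (adjusted p = 0.329) of OCT4-FKBP, and by DESeq2 (adjusted p = 0.0501).

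The member 14532 bp downstream of Mycn, a MYC family gene (chr12:12926809-12928008), was among the fast ones. It had 15.8 and 19.4 CPM in NT of SOX2-FKBP, 4.90 and 7.31 CPM at 0.5 h and 2.30 and 4.60 CPM at 2 h, and in OCT4-FKBP 18.2 and 20.8 CPM in NT and 2.40 and 3.58 CPM at 2 h. Its 9 treated NANOG-FKBP libraries held 20.2 to 31.3 CPM against 20.2 and 25 CPM in NT. The members nearest Prdm14 (chr1:13074657-13074988), Zfp42 (chr8:43353391-43355357) and Foxd3 (chr4:99641693-99642530), which encode transcription factors of these cells, were left with 0.640 to 3.2 CPM at 24 h of SOX2 depletion, from 9.36 to 12.4 CPM. None of these 4 passed in any of the 8 contrasts.

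Of the receptors of LIF signalling, Lifr held an intronic member (chr15:7115037-7117291) and Il6st, which encodes the shared subunit gp130, a member 1416 bp upstream (chr13:112462132-112462907). The Lifr member went from 45.5 and 40.1 CPM to 9.56 and 7.47 CPM at 24 h of SOX2 depletion. The Il6st member went from 21.3 and 28.2 CPM to 3.26 and 4.59 CPM, and in OCT4-FKBP from 3.72 and 4.93 CPM at 6 h to 2.17 and 0.986 CPM at 24 h (log2 fold change -1.33, SE 0.40, adjusted p = 0.0319), a call lost without 24 h replicate 2 (adjusted p = 0.293) or 6 h replicate 2 (adjusted p = 0.15). Dusp6, a phosphatase of ERK signalling, had a member in an exon of a non-coding gene 90424 bp downstream of its start (chr10:99353164-99354521). That member held a composite with 1 mismatch, and after 24 h of SOX2 depletion 2.72 and 3.84 CPM were left of 10.6 and 10.9 CPM. Smad7, an inhibitor of TGF-beta signalling, had the remaining 2.

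The member nearest Otx2, a factor of the formative epiblast, lay in an intron of the non-coding gene Otx2os1 (chr14:48700524-48701954) and had 58.5% of NT left at 24 h of SOX2 depletion. It had 26.0 and 28.6 CPM in NT, 13 and 11.2 CPM at 2 h and 19.1 and 12.8 CPM at 24 h of SOX2 depletion, and 22.8 and 20.7 CPM, 8.14 and 7.29 CPM and 8.40 and 12.3 CPM in OCT4-FKBP. Neither interval from 6 h to 24 h passed (adjusted p = 0.892 and 0.634). In NANOG-FKBP the 24 h libraries (27.3, 33.1 and 25.6 CPM) were all above those of NT (24.5 and 10.5 CPM), without passing the test (log2 fold change 0.69, SE 0.27, adjusted p = 0.246).

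Among regulators of other lineages, the member upstream of Eomes, a T-box factor of mesendoderm, fell in both lines after 6 h. It had 34.1 and 32.1 CPM in NT, 9.59 and 14.6 CPM at 0.5 h, 3.86 and 6.74 CPM at 6 h and 1.41 and 1.39 CPM at 24 h of SOX2 depletion (24 h against 6 h, log2 fold change -1.88, SE 0.35, adjusted p = 0.0201), a call lost without any of its 4 libraries (adjusted p from 0.0612 to 0.583). In OCT4-FKBP it had 54.2 and 44.9 CPM in NT, 12.6 and 16.7 CPM at 6 h and 5.15 and 6.24 CPM at 24 h (-1.31, SE 0.27, adjusted p = 0.00183). The member nearest Pax6, an eye and neural factor (chr2:105610920-105612600), was the only listed member that passed a NANOG test, with 16.9 and 18.4 CPM in NT and 11.8, 10.4 and 9.25 CPM at 24 h (log2 fold change -0.73, SE 0.20, adjusted p = 0.0329). The call was lost without either NT library (adjusted p = 0.134 and 0.209), 24 h replicate 1 (0.0685) or 24 h replicate 3 (0.213). At 2 h and 6 h of NANOG depletion its adjusted p was 0.844 and 0.921. The members nearest Neurog1 (chr13:56215606-56216580), a proneural gene, and Tfap2a (chr13:40652848-40653307), a neural crest gene, passed no test.

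**Figure D5:**
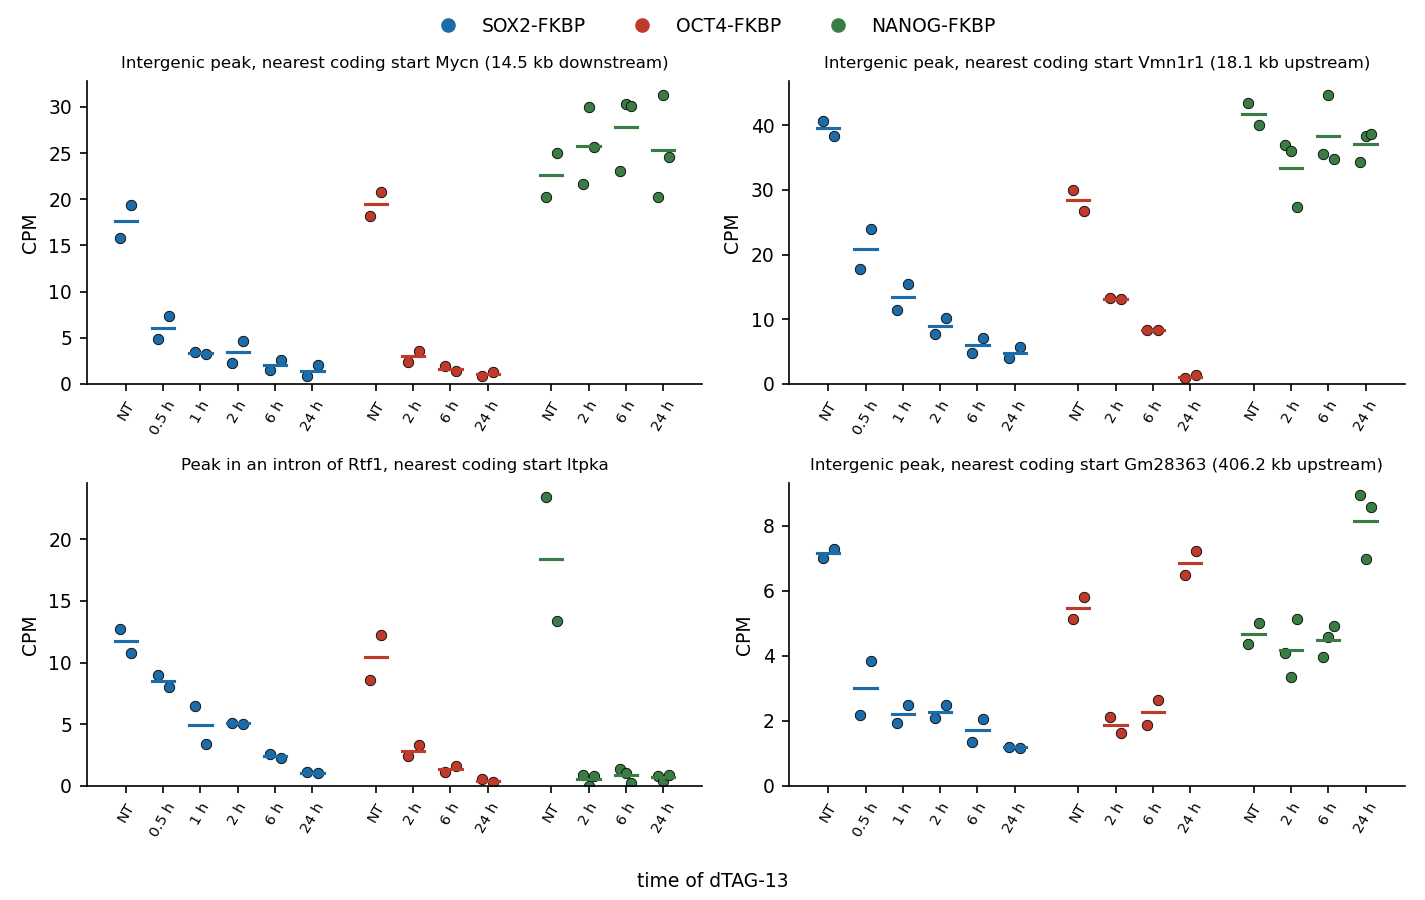
CPM in every library (points) with the group mean (line) for 4 members, by line and time of dTAG-13. The member near Mycn falls after SOX2 and OCT4 depletion, that in the Rtf1 intron also after NANOG depletion (0.00 to 1.40 CPM against 23.4 and 13.4 CPM in NT), that near Vmn1r1 falls between 6 h and 24 h in OCT4-FKBP, and that near Gm28363 is back at 6.50 and 7.23 CPM at 24 h of OCT4 depletion.

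At the edge of the rule, members just inside it lay in an intron of Nod1, an innate immune sensor gene (chr6:54964442-54965722), and 58371 bp upstream of Sult2a4, a sulfotransferase gene (chr7:14047430-14048307). Their larger ratio was 0.500 after rounding, as it was at the peaks just outside, on chromosome 13 (chr13:118034830-118036348) and 3594 bp upstream of Ifitm2, an interferon-induced gene (chr7:140959160-140960326). The Nod1 member had 13.7 and 10.8 CPM in NT and 6.35 and 5.90 CPM at 2 h of SOX2 depletion, and the Ifitm2 peak 31.6 and 26.3 CPM and 13.5 and 15.4 CPM at 2 h of OCT4 depletion.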

How the data were processed

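ATAC-seq libraries of FKBP-tagged mouse embryonic stem cells were analysed from 31 of 45 samples, and the other 14 were not analysed here. The deposited values are fragment counts per peak, which the authors obtained by aligning paired-end reads to mm10 with BWA 0.7.17-r1188, keeping reads of mapping quality 10 or more (SAMtools 1.10), removing duplicates (Picard 2.12.0) and counting fragments in peaks that MACS2 called on merged libraries. Tools and versions come from the submitters' processing notes and the study's methods. The deposited peak list gives, as the authors' values for merged libraries, a score, a fold enrichment, a −log10 q and a summit offset, of which only the offset is used in the text. Totals ranged from 1817191 to 17575631 counts per library, and low totals widen the error of weak peaks.

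The members and the gene and motif lists were chosen with earlier results of these data known. CPM used library totals without the 2 mitochondrial peaks. Groups came from the sample titles. The low-count filter was that of the study, which keeps peaks above a set count in more than a set number of libraries. Peaks that passed were tested with edgeR 4.0.16 (R 4.3.3, TMM, glmQLFit, two-sided, Benjamini-Hochberg over all peaks tested) in a fit of 27 libraries. For 0.5 h to 6 h of SOX2 depletion a fit of the 12 SOX2-FKBP libraries was used. The SE of a log2 fold change is approximate and was derived from the F statistic. The scripts were tested on simulated data. Replicates of a group differed by more than sampling noise, with a chi-square per degree of freedom of at least 1.33. Same-numbered libraries deviated together in SOX2-FKBP (correlation 0.08 to 0.23 over all peaks tested and 0.12 to 0.45 over peaks of at least 4 CPM) and in OCT4-FKBP (0.15 to 0.35 and 0.35 to 0.61), so the numbers were taken to pair libraries there. The main tests nevertheless compared group means without this pairing, and only the replicate block used it. In NANOG-FKBP treated libraries did not deviate with same-numbered NT libraries (0.04 to 0.08 and -0.03 to 0.08). Same-numbered treated libraries of NANOG-FKBP did deviate together between times (0.17 to 0.21 and 0.39 to 0.46). Motifs and positions were read from GRCm38 (mm10) with pysam 0.24.0, and sequences are those of the reference. The peaks named are the 8 members of highest NT level (1 of them is not reported here), up to 2 members with the largest called fall and rise in each contrast, the strongest member at each listed gene, those nearest the threshold, and the windows shown. Alternatives were DESeq2 1.42.0, its size factors, library totals, no or a stricter count filter, the replicate block, leaving out each library, and other limits for members and motifs. Leaving out the treated NANOG-FKBP replicate 2 libraries was added after seeing the data.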

Additional observations from a re-analysis of the deposited data

Results flagged for a closer look

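At the member 18122 bp upstream of the Vmn1r1 start (chr1:182181466-182182911) the change from 6 h to 24 h differed between SOX2 and OCT4 depletion by 2.57 on the log2 scale (SE 0.45, adjusted p = 0.0184, edgeR interaction term). It fell in 2 of 2 OCT4-FKBP libraries below both 6 h libraries, and over the alternatives the adjusted p ranged from 0.000159 with the replicate block to 0.135 without 24 h replicate 1 of OCT4-FKBP.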

How the results depend on the processing

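The median change of members was negative under every alternative in all contrasts but the SOX2 minus OCT4 difference, where it was -0.11 and ranged from -0.26 to 0.08, while the counts of members called moved. With at least 10 counts in every library, which left 730 members in the larger fit, 12, 15 and 52 members changed at 2, 6 and 24 h of NANOG depletion and 2 in the SOX2 minus OCT4 difference. With the replicate block, in which same-numbered libraries are paired, the NANOG counts were 392, 413 and 576, of which 380, 370 and 441 fell and the rest rose (as reported, 0, 1 and 21 rose). Whether NANOG-FKBP numbers mark the same cultures was not tested. The other counts with the block were 124 (6 h to 24 h of SOX2 depletion), 322 (6 h to 24 h of OCT4 depletion), 26 (their difference), 36 (0.5 h to 1 h) and 331 (1 h to 6 h). The share of all peaks called with the block is not given, so its counts are not read as a result about members. DESeq2 gave 11 for 6 h to 24 h of SOX2 depletion, 3 for the difference and 65 for 1 h to 6 h, and library totals gave 10 for 6 h to 24 h of SOX2 depletion. Leaving out each library in turn gave 55 to 183, 72 to 185 and 150 to 328 members at the NANOG times, 0 to 0 from 6 h to 24 h of SOX2 depletion, 31 to 117 from 6 h to 24 h of OCT4 depletion, 0 to 1 for the difference, 0 to 2 from 0.5 h to 1 h and 13 to 102 from 1 h to 6 h, where a lone library is assumed to vary like the other groups. The cause of these shifts was not tested beyond the fewer peaks or libraries that a setting holds. The number of members was 1436 at a ratio of at most 0.4, 3938 at an NT minimum of 2 CPM and 1198 at 8 CPM. The share with a composite was 8.58% and 75.7% at 2 and 4 mismatches, 30.3% in 200 bases and 46.3% over whole peaks. For the named members, 388 of 463 alternatives kept the side of the threshold, 75 lost the call and 0 changed sign.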

Other observations

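In NANOG-FKBP the share of counts on chromosome 8 was 5.73% in NT replicate 1, 7.39% in NT replicate 2, 5.81% to 5.82% in treated replicate 1, 6.66% to 6.68% in treated replicate 2 and 7.32% to 7.35% in treated replicate 3. The share of NT replicate 2 thus lay nearest that of treated replicate 3, and whether NANOG-FKBP libraries with the same number come from the same culture was not tested. Of the members lower after NANOG depletion, 15 of 187, 13 of 190 and 21 of 308 lay on this chromosome, which holds 136 of the 2414 members.

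Peaks lost at 2 h only after SOX2 depletion had a median of 103% of NT after 6 h and 53.5% after 24 h of OCT4 depletion (SD of the 24 h library medians 17, n = 2). At 24 h of NANOG depletion the 21 members that rose had a median NT level of 6.33 CPM, and the 308 that fell 12.1 CPM. The same NT libraries are the baseline of these calls, so the 2 levels are not independent of the calls and nothing is read from their difference.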
